A study of Homo sapiens with 6 samples.

Results

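The regulators of the epithelial-mesenchymal switch and the classical cadherins they act on were examined in the colorectal cancer line HCT116, which is of human origin and established. The 10 genes were fixed by name (CDH1, CDH2, CDH3, ZEB1, ZEB2, SNAI1, SNAI2, GRHL2, OVOL1 and VIM), and all 10 were found among the 56638 gene symbols of the count tables. RNA was sequenced from 3 control libraries and 3 libraries labelled ZFP90 knockout, both from HCT116 cells at passage 16 to 19; guide RNAs had been aimed at exon 3 of ZFP90, a KRAB zinc-finger gene. The labels do not say what the controls received, whether the knockout is a clone or a pool, or whether replicates came from separate cultures, so each p-value reflects spread among these libraries that could be purely technical.

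Epithelial cells hold together through E-cadherin, the product of CDH1, and P-cadherin, the product of CDH3; both are classical cadherins that bind catenins inside the cell. In an epithelial-mesenchymal transition, the SNAIL and ZEB repressors (SNAI1, SNAI2, ZEB1, ZEB2) shut off CDH1 by binding E-box sequences, and N-cadherin (CDH2) and the intermediate filament vimentin (VIM) come on. GRHL2 and OVOL1 work on the other side: they are epithelial transcription factors that can hold ZEB1 down, and ZEB1 can repress GRHL2 in return. Colorectal cancer cell lines differ in where they stand along this axis.

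ZEB1 is the member whose RNA differed most between the groups, and 2 stretches upstream of its annotated starts are shown because they hold letters that other members' proteins can bind. Among the RefSeq promoter windows kept for the search, 4 of the 10 members were matched: CDH2, VIM, ZEB1 and ZEB2. Any windows of GRHL2 and SNAI2 had been left out beforehand, so their absence here does not show that they have none. ZEB1 has 7 windows, and the 250 bases before each start were searched on both strands for the E-box CACCTG, recognised by ZEB and SNAIL proteins, and for CCGTTA, the core recognised by OVO-like proteins such as OVOL1; the letters of the motifs do not overlap. Of the 7 windows, 2 held an E-box (3 matches in all) and 1 held CCGTTA; the windows of CDH2, VIM and ZEB2 held neither. For comparison, 17.5% of all 35116 windows held the E-box and 2.45% held CCGTTA. Both stretches are on the plus strand of GRCh38.p14 and lie within the span of the antisense gene ZEB1-AS1 in GENCODE release 29. Capitals mark the match, which in the first is the E-box in reverse complement, CAGGTG, 57 bases before the start, and in the second CCGTTA, 203 bases before the start. A match is a description of the letters, not of binding.
ZEB1 first start, chr10:31318167-31318416: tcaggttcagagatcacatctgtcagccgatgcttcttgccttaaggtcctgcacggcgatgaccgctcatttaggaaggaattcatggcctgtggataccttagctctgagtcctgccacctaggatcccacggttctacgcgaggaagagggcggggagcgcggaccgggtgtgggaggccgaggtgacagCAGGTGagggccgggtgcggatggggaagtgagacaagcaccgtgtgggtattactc
ZEB1 later start, chr10:31319518-31319767: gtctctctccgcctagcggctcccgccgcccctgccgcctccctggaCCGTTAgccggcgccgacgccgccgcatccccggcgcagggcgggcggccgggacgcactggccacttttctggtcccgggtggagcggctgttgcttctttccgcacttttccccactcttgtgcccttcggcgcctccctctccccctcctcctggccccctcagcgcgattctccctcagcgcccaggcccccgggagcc

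Reads in genes numbered 13424356 to 17012910 per library. Control replicate 2 stood apart: after scaling it had 101.7% to 104.2% of the reads of the other controls in the median gene of chromosomes 1 to 5 and 10 to 22, but only 88.01%, 81.1%, 75.7% and 70.9% of them on chromosomes 6, 7, 8 and 9, and 54.8% for X. GRHL2 and SNAI2 lie on chromosome 8, and the other members on chromosomes without the deficit. ZFP90 RNA rose in the libraries labelled knockout (log2 fold change 0.90, SE 0.066; edgeR adjusted p = 5.1e-05); gene-level reads do not show whether its reading frame was broken, so directions are given for the libraries as labelled. The epithelial markers KRT8, KRT19, EPCAM and KRT18 were abundant, with control means of 1318, 591, 349.8 and 209.7 CPM (counts scaled to library size with edgeR's TMM factors). CDX2 measured 15.6 CPM and CDH17 0.758, whereas VIL1, GPA33, LGALS4 and CEACAM5 averaged 0.0439 to 0.218 CPM in the controls and CDX1 had 0 reads. Of these 11 colon epithelium markers 6 were tested and KRT18 alone was called (log2 fold change -0.23; edgeR adjusted p = 0.0394), a call that needed control replicate 3 and replicates 2 and 3 labelled knockout. Of 6 leukocyte markers 0 passed the count filter, with CD3E and MS4A1 at 0 reads and a summed level of 0.988 to 1.42 CPM in the controls and 0.604 to 0.78 in the libraries labelled knockout. Of 5 endothelial markers 3 passed and PECAM1 was at 0, with sums of 2.22 to 3.06 and 3.08 to 3.66 CPM. Of 8 fibroblast markers 5 passed and 0 were called, with sums of 75.6 to 96.2 and 76.1 to 97.5 CPM, of which COL1A1 gave a mean of 73.9 and 74.3 CPM. What part other cell types had in the results was not tested.

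Of the 10 members, 7 passed the filter on low counts and 3 were called: OVOL1 and GRHL2 rose and ZEB1 fell (edgeR quasi-likelihood test, adjusted p under 0.05 over 16369 genes). Over all tested genes 21.1% were called, 9.73% higher and 11.4% lower. With so few members this is a description of the genes below and not a property of the set. CDH1, CDH3, SNAI1 and VIM were not called, and CDH2, ZEB2 and SNAI2 were too low to test. For 5 of the 7 tested members the 3 libraries of a group did not overlap those of the other, where 41.2% of all tested genes were separated in this way (20.9% higher and 20.3% lower). OVOL1 and GRHL2 were the higher 2 and ZEB1, CDH3 and VIM the lower 3. VIM passed the count filter mainly through the controls, where it was higher, so its separation is no support for this count. At a CPM of at least 1 in 3 libraries VIM was not tested, and 6 members remained. With scaling by library size alone, 29.6% of all calls were higher, against 46.1% with TMM.

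**Figure D1:**
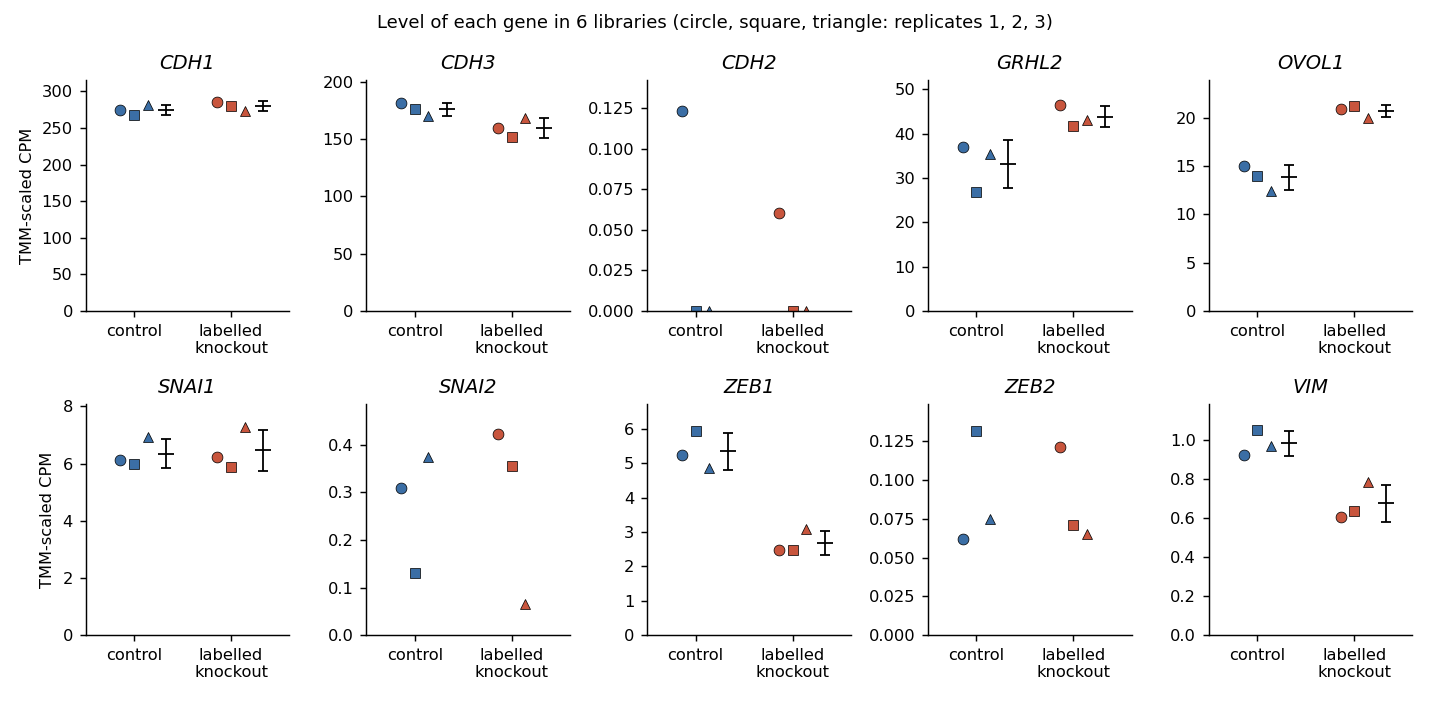
Level of each of the 10 genes in TMM-scaled CPM (linear axes starting at 0) in the 3 control and 3 labelled knockout libraries; points are libraries, and for the 7 tested genes the bar is the mean with its SD. The groups are apart for CDH3, GRHL2, OVOL1, ZEB1 and VIM, and CDH2, SNAI2 and ZEB2 rest on at most 7 reads per library.

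Per kilobase of exon, the control levels ran from CDH1 (44.5 ± 1.13 CPM per kb; SD, n = 3) and CDH3 (28.2 ± 0.962) through GRHL2 (5.47 ± 0.894), SNAI1 (3.76 ± 0.308) and OVOL1 (3.60 ± 0.339) to ZEB1 (0.617 ± 0.0626) and VIM (0.191 ± 0.0125). SNAI2 stood at 0.0799 ± 0.0369, and CDH2 and ZEB2 were below 0.01. SNAI1 and OVOL1 did not differ beyond their spread in the controls, and their order turned when the longest transcript was used as the length (3.76 against 4.56). In the libraries labelled knockout OVOL1 measured 5.38 ± 0.159 CPM per kb and SNAI1 3.83 ± 0.426, so that OVOL1 stood above SNAI1 there with either length. In both groups the epithelial cadherins led, the epithelial factors and SNAI1 came next, and the other mesenchymal members were last.

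ZEB1, the zinc-finger and homeodomain repressor of CDH1, fell. Its reads were 85, 90 and 65 for the controls (replicates 1 to 3) against 41, 35 and 47 for the libraries labelled knockout. In CPM these were 5.25, 5.92 and 4.85 against 2.48, 2.48 and 3.08, so the highest library labelled knockout lay well below the lowest control. In bulk RNA, fewer cells with a transcript and less of it per cell cannot be told apart. The mean went from 5.34 ± 0.541 to 2.68 ± 0.344 CPM (SD, n = 3 each), a log2 fold change of -0.996 (SE 0.16, 95% interval -1.36 to -0.63; edgeR adjusted p = 0.00351). Of all tested genes, 3.56% had a larger absolute log2 fold change. In GENCODE release 29 (GRCh38) the gene spans bases 31318495 to 31529814 of chromosome 10, plus strand, and its first 1953 bases overlap ZEB1-AS1 on the other strand; the strand setting of the counting is not given in the sources used here, so reads of the pair cannot be told apart there. ZEB1-AS1 was looked up after the ZEB1 values were seen. It had 76, 80 and 79 control reads and 60, 66 and 57 reads in the libraries labelled knockout. In CPM every library labelled knockout (3.62 to 4.68) lay below every control (4.69 to 5.90). Its log2 fold change of -0.40 (SE 0.16, 95% interval -0.76 to -0.03) was not called (edgeR adjusted p = 0.115).

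OVOL1, an OVO-like zinc-finger factor that represses mesenchymal genes, went the other way. Control replicates 1 to 3 measured 15.1, 14.02 and 12.5 CPM from 244, 213 and 167 reads, and the libraries labelled knockout 20.9, 21.2 and 20.03 CPM from 346, 299 and 306 reads. All libraries labelled knockout were above all controls, and they lay closer together. The log2 fold change was 0.58 (SE 0.091, 95% interval 0.37 to 0.78; edgeR adjusted p = 0.00309). OVOL1-AS1, looked up after these values were seen, gave 6 to 17 reads per library and was not called (edgeR adjusted p = 0.818).

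GRHL2, a grainyhead-like activator of epithelial junction genes including CDH1, also rose. Its control levels were 36.9, 26.9 and 35.5 CPM from 598, 409 and 476 reads, and those of the libraries labelled knockout 46.5, 41.8 and 43.2 CPM from 769, 589 and 660 reads. Control replicate 2, which carries the deficit on chromosome 8, was the lowest of the 6. With all libraries the log2 fold change was 0.40 (SE 0.11, 95% interval 0.15 to 0.66; edgeR adjusted p = 0.0351). Without control replicate 2 it was 0.28 (SE 0.072; adjusted p = 0.00736), and with that library corrected along the genome 0.29 (adjusted p = 0.00306). The call was lost when control replicate 3 was left out (adjusted p = 0.0503) and when replicate 1, 2 or 3 labelled knockout was left out (0.131, 0.0671 and 0.0968).

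**Figure D2:**
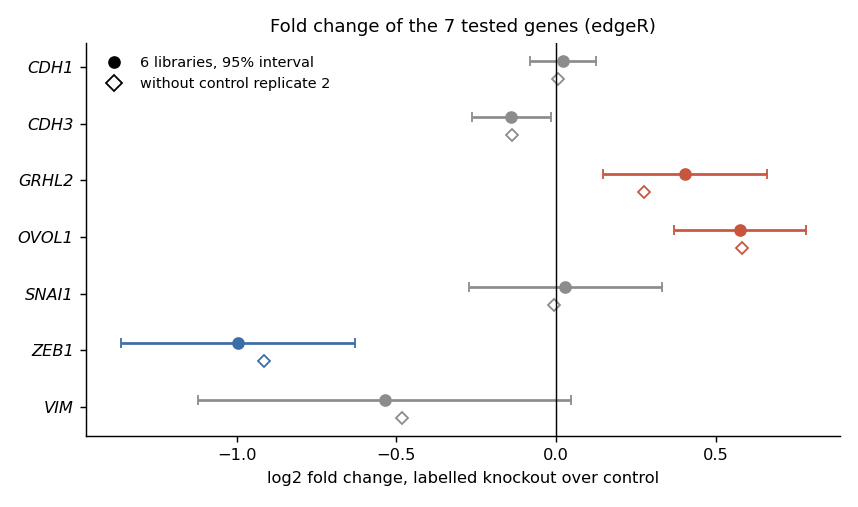
Log2 fold change (labelled knockout over control) of the 7 tested genes with 95% intervals from edgeR, filled circles; open diamonds leave out control replicate 2. Red and blue mark genes called higher and lower. The interval of CDH1 spans 0 narrowly, that of VIM widely, and GRHL2 moves from 0.40 to 0.28.

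The repressor SNAI1 (SNAIL) did not follow ZEB1. It measured 6.11, 5.99 and 6.94 CPM in the controls and 6.22, 5.89 and 7.26 CPM in the libraries labelled knockout, and the groups overlapped throughout. Its log2 fold change was 0.03 (95% interval -0.27 to 0.33; edgeR adjusted p = 0.902), and the sign turned under 4 of the alternatives tried. SNAI2 (SLUG) gave 5, 2 and 5 reads in the controls and 7, 5 and 1 in the libraries labelled knockout, a ratio of 1.06 between the groups with an exact 95% counting interval from 0.444 to 2.53. ZEB2, the close relative of ZEB1, gave 1 or 2 reads in every library, and CDH2 gave 2 reads in 1 control, 1 read in 1 library labelled knockout and 0 elsewhere. All libraries were at or below 3 reads for ZEB2 and CDH2, which corresponds to 0.181 to 0.224 CPM, so no fold is given. The exact 95% counting interval of the group ratio was 0.182 to 5.24 for ZEB2 and 0.00826 to 9.37 for CDH2. A change within these limits was not detectable at this depth.

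CDH1, the E-cadherin gene that the called regulators are known to act on, did not change measurably. Its levels were 274.8, 268.1 and 282.1 CPM in the controls and 286.2, 279.7 and 272.6 CPM in the libraries labelled knockout, each from 3778 to 4737 reads, and the groups overlapped. The log2 fold change was 0.02 (SE 0.046; edgeR adjusted p = 0.755), with a 95% interval from -0.08 to 0.13, which is 0.946-fold to 1.09-fold; it was -0.04 when scaled by library size alone. CDH3 (P-cadherin) was slightly lower, at 181.8, 176.3 and 169.8 CPM against 159.7, 151.5 and 168.3 CPM, without overlap. Its log2 fold change of -0.14 (95% interval -0.26 to -0.02) did not pass over all genes (edgeR adjusted p = 0.104) and passed with control replicate 2 corrected along the genome (0.0414). Both cadherin genes follow ZFP90 on chromosome 16 in GENCODE release 29: CDH3 (68636189 to 68722616) begins 60117 bases beyond the end of ZFP90, and CDH1 (68737225 to 68835548) another 14609 bases on, all on the plus strand of GRCh38. Taken per kilobase, CDH1 made up 61.2% ± 1.25 of the summed RNA of the 3 cadherins among the members in the controls. In the libraries labelled knockout it made up 63.8% ± 1.59 (SD, n = 3). CDH3 made up nearly all the rest, and CDH2 0.0113% in the controls and 0.00565% in the libraries labelled knockout. The CDH1 share was 62.06% in replicate 3 labelled knockout and 62.6% in control replicate 3, so the groups overlapped.

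VIM was barely present, with 15, 16 and 13 reads in the controls and 10, 9 and 12 in the libraries labelled knockout. This is 0.926, 1.05 and 0.971 CPM against 0.604, 0.638 and 0.785 CPM, with every library labelled knockout below every control. The log2 fold change of -0.54 (SE 0.26, 95% interval -1.12 to 0.05) was not called (edgeR adjusted p = 0.238). VIM passed the count filter mainly through the controls, where it was higher, and it shares 1727 bases with VIM-AS1 on the other strand.

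Ratios of reads within a library do not depend on the scaling between libraries. For each ZEB1 read the controls (replicates 1 to 3) had 2.87, 2.37 and 2.57 OVOL1 reads, while those labelled knockout had 8.44, 8.54 and 6.51. The corresponding GRHL2 ratios were 7.04, 4.54 and 7.32 against 18.8, 16.8 and 14.04; the lowest is control replicate 2, with its chromosome 8 deficit. For each SNAI1 read there were 0.859, 0.989 and 0.699 ZEB1 reads in the controls and 0.398, 0.422 and 0.423 in the libraries labelled knockout. All 3 ratios separated the groups, whereas the ratio of CDH1 to CDH3 overlapped (1.51 to 1.66 against 1.62 to 1.85). ZEB1 per ZEB1-AS1 read overlapped narrowly (0.823 to 1.125 against 0.530 to 0.825). GRHL2 per OVOL1 read overlapped too (1.92 to 2.85 against 1.97 to 2.22). For OVOL1 and GRHL2 per ZEB1 read, separation was fixed by the levels above and adds nothing to them. In CPM, OVOL1 and GRHL2 were higher, and ZEB1 lower, in every library labelled knockout than in every control. The genes were chosen for these ratios after their levels were seen, so no test is given.

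**Figure D3:**
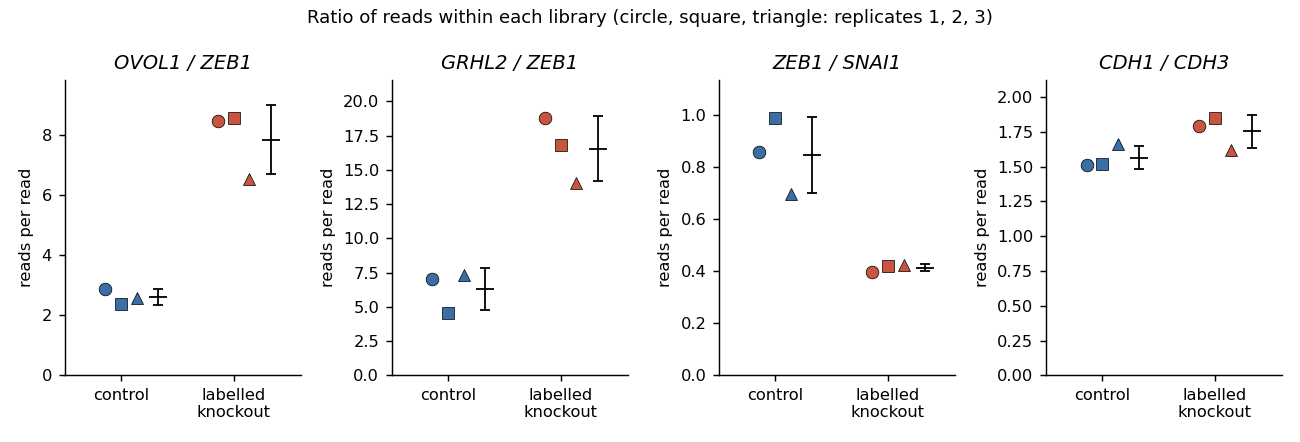
Ratio of reads of 2 genes within each library (linear axes from 0), with the mean and SD of each group beside the points. OVOL1 and GRHL2 per ZEB1 read are higher, and ZEB1 per SNAI1 read lower, in all 3 libraries labelled knockout, while CDH1 per CDH3 overlaps.

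Among all tested genes of at least 5 CPM, the 3 whose log2 CPM followed ZEB1 most closely over the 6 libraries were the pseudogene RBMS2P1, the glycogenin gene GYG1 and the ligand gene WNT9A (Pearson r 0.999, 0.999 and 0.997). OVOL1 was followed by CBX5, LETM1 and ZNF14 (0.997, 0.995 and 0.995), and GRHL2 by DDX56, SCARB1 and HDAC2 (0.997, 0.996 and 0.995). These are the highest of 11687 or 11688 genes compared, and the 6 points share the group difference and, for GRHL2, the deficit of control replicate 2.

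The other factors of the switch moved in both directions. Of 15 other transcription factors that can drive the transition, 9 were tested, and 4 rose and 1 fell (55.6% called), with a median log2 fold change of 0.28 where all tested genes had 0.0084. The called share of this list and of each list below stands beside 21.1% over all tested genes. The lists were chosen with earlier results of these data known, so a share above 21.1% is a description and no support for a list. SOX4, a SOX-family factor, measured 62.5 ± 5.41 CPM in the controls and 206.7 ± 39.6 in the others (SD, n = 3), a rise of 1.73 on the log2 scale, FOXQ1 by 1.45, FOXC1 by 0.41 and TCF3, which encodes E-box binding E proteins, by 0.34. ETS1 fell by 1.11 from 25.7 ± 3.996 CPM. FOXQ1, with 6, 10 and 8 control reads against 24, 24 and 20, passed the count filter through the libraries labelled knockout, where it was high, so its call is no support for the list; 3 rose without it. The FOXC1 call was lost without replicate 1 or 3 labelled knockout (edgeR adjusted p up to 0.071); SOX4, FOXQ1 and FOXC1 lie on chromosome 6, and without control replicate 2 their log2 fold changes were 1.66, 1.63 and 0.30. TWIST1, TWIST2, FOXC2, PRRX1, GSC and TCF4 were too low to test.

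Of 17 other epithelial factors 12 were tested, and 4 rose and 2 fell (50.0% called; median 0.018). The grainyhead-like paralogues of GRHL2 parted: GRHL3 rose from 1.55 ± 0.225 to 4.18 ± 0.912 CPM (log2 fold change 1.43) and GRHL1 fell from 22.5 ± 1.92 to 14.7 ± 1.68 CPM (-0.62). KLF5 rose by 0.73, KLF4 by 0.48 and ELF5 by 1.52, and the epithelial ETS factor EHF fell by 0.73. ELF5, with 5, 6 and 5 control reads against 18, 10 and 20, passed the count filter through the group where it was high; at a CPM of at least 1 in 3 libraries 11 genes were tested and 3 rose. Lower calls numbered 5 after control replicate 2 was corrected and 5 with scaling by library size alone. Leaving out replicate 1 labelled knockout left 2 higher calls. KLF4 lies on chromosome 9, and its log2 fold change was 0.34 without control replicate 2. The KLF4 call was lost without replicate 1 or 2 labelled knockout, and that of ELF5 without the first control or replicate 1 or 3 labelled knockout (edgeR adjusted p up to 0.079 and 0.0654). The splicing regulator ESRP1, the most abundant of the list and on chromosome 8, was not called (442.8 ± 69.8 against 524.2 ± 31.7 CPM; edgeR adjusted p = 0.14). OVOL2, OVOL3, FOXA2, SPDEF and TP63 were too low to test.

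Inside the junction, 14 of 18 cadherin partners were tested, and 5 rose and 2 fell (50.0% called, median -0.10). NECTIN3 and NECTIN4 were not matched to a symbol of the counts, so 16 of the 18 could be looked up. LIMA1, which links cadherin complexes to actin, fell from 225.8 ± 7.64 to 112.8 ± 3.88 CPM (log2 fold change -1.002; edgeR adjusted p = 8.5e-06), and p120-catenin (CTNND1) fell by 0.22. NECTIN1 rose by 0.42, plakoglobin (JUP) by 0.29, CAMSAP3 by 0.28 and NECTIN2 by 0.23; beta-catenin (CTNNB1) rose by 0.19. Alpha-catenin (CTNNA1), the most abundant, measured 625.4 ± 9.30 and 608.2 ± 18.8 CPM and was not called. LIMA1, NECTIN1 and JUP kept their calls with any 1 library left out, but with scaling by library size alone only NECTIN1 was still higher and JUP lost its call (edgeR adjusted p = 0.0594). Higher calls numbered 3 with upper-quartile scaling or DESeq2, and lower calls 4 with control replicate 2 corrected along the genome. The higher count was 2 without control replicate 1 or any 1 of the libraries labelled knockout and 3 without control replicate 3, and the lower count was 1 in the first 4 of these settings and 3 without control replicate 2. Of 19 other cadherins only 5 were tested, and CDH15 alone was called (20.0%; log2 fold change -0.93, from 4.45 ± 1.35 CPM); of the fits with 1 library left out, that call was kept only without control replicate 2, where 2 were called. CDH24, the most abundant of them, measured 19.2 ± 3.15 and 17.5 ± 1.84 CPM.

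Epithelial genes that SNAIL or ZEB proteins can repress were all 21 tested, and 2 rose and 5 fell (33.3% called; median -0.03). MARVELD3 rose by 0.52 and desmoplakin (DSP), the most abundant, by 0.29, whereas the protease PRSS8 fell from 28.9 ± 0.942 to 8.89 ± 0.231 CPM (log2 fold change -1.70), CDS1 fell by 0.51, CGN by 0.48, OCLN by 0.35 and TJP3 by 0.28. OCLN lost its call without replicate 1 and TJP3 without replicate 3 labelled knockout (edgeR adjusted p = 0.0536 and 0.0522). EPCAM, a cell adhesion molecule of this list chosen after its values were seen, measured 349.8 ± 11.8 and 347.8 ± 4.64 CPM. Of 22 mesenchymal genes 20 were tested, and 1 rose and 4 fell (25% called; median -0.03), a share close to that of all tested genes. Among those that fell, the receptor kinase AXL fell by 0.77, ACTA2 by 0.69 and FSTL1 by 0.36, and the matrix protease MMP14 rose by 0.39. ACTA2 lost its call with any 1 library left out, and FSTL1 without replicate 1 labelled knockout, where 2 genes of the list were lower; without control replicate 2, 2 were higher. S100A4, the most abundant, measured 174.7 ± 43.7 and 213.2 ± 42.7 CPM and was not called.

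Among 6 genes of intermediate filaments and their linker, 5 were tested, 2 fell and 1 rose (60.0% called; median -0.0021). The type III filament gene PRPH fell by 0.98 from 8.30 ± 0.608 CPM and nestin (NES) by 1.16 from 17.2 ± 1.81 CPM, and synemin (SYNM) rose by 0.47. The SYNM call was lost without the first control or replicate 1 or 3 labelled knockout; the count of higher genes was then 0, and it was 2 without control replicate 2. Plectin (PLEC), on chromosome 8, measured 1214 ± 144.2 and 1495 ± 125.03 CPM (edgeR adjusted p = 0.0549); it was called without control replicate 2 (log2 fold change 0.21, edgeR adjusted p = 0.0171).

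All 20 corepressors and cofactors used by SNAIL or ZEB proteins were tested, and 5 rose and 2 fell (35.0% called; median 0.082). The demethylase KDM1A rose by 0.36 and its partner RCOR1 by 0.29, EZH2 by 0.33, HDAC2 by 0.30 and DNMT1 by 0.25, while the acetyltransferase KAT2B fell by 1.04 and the polycomb gene BMI1 by 0.72. EZH2 lies on chromosome 7 and HDAC2 on chromosome 6; HDAC2 rose by 0.19 without control replicate 2, and EZH2 by 0.19 with that library corrected along the genome, both still called. KDM1A, RCOR1, KAT2B and BMI1 kept their calls with any 1 library left out, and the higher count was 3 without replicate 1 or 3 labelled knockout. HDAC1, the most abundant, measured 220.9 ± 3.68 and 206.9 ± 1.67 CPM and was not called. Of 14 enzymes that act on the stability of SNAIL or ZEB proteins 12 were tested. FBXO45 rose by 0.26, SIAH2 by 0.19 and LATS2 fell by 0.41 (25% called; median 0.069 over the list). Higher calls numbered 0 without the first control or replicate 2 or 3 labelled knockout, 1 without control replicate 3 or the first replicate labelled knockout and 4 without control replicate 2, and they numbered 0 with library size alone and 5 with control replicate 2 corrected along the genome. The LATS2 call was lost without replicate 3 labelled knockout. GSK3B, the most abundant, measured 148.2 ± 2.66 and 137.7 ± 3.72 CPM and was not called.

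**Figure D4:**
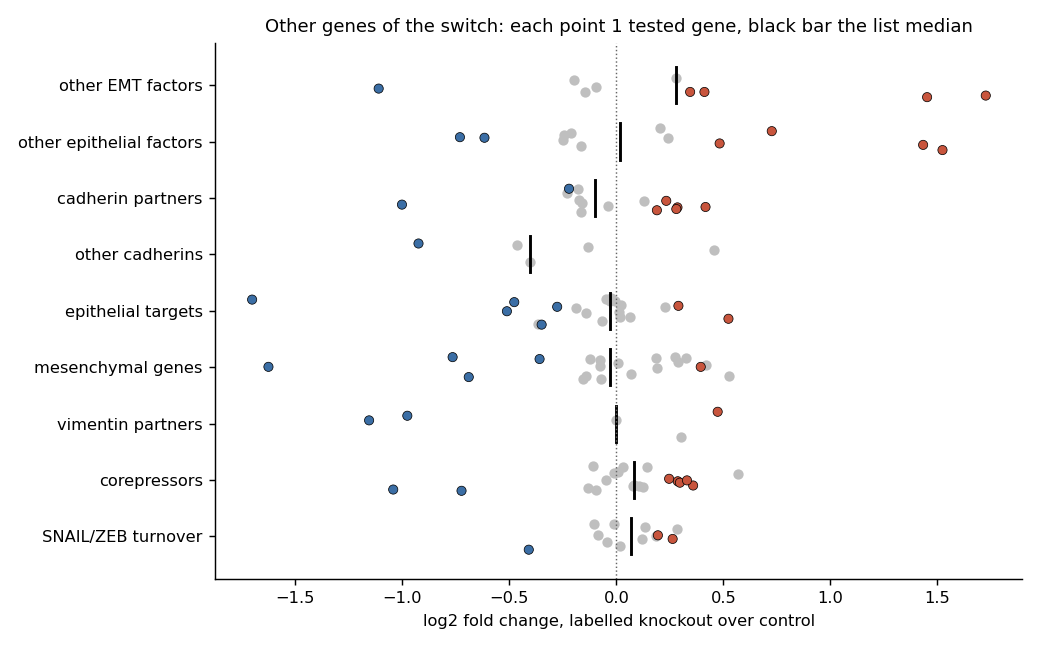
Log2 fold change (labelled knockout over control) of each tested gene in the 9 lists of other genes of the switch; red and blue points passed the edgeR test, grey points did not, and the black bar is the list median. Each list but the other cadherins holds called genes in both directions, and its median lies between -0.10 and 0.28.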

How the data were processed

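Per the labels' protocols, an Illumina TruSeq kit turned 1 µg of total RNA into each library. For every library the authors deposited a table of unnormalized read counts by gene symbol. TopHat2 2.0.11, HTSeq and hg19/GRCh37 are named in the submitters' processing notes. Neither the version of HTSeq nor its strand setting is given in the sources used here. The 5 summary lines held 31.7% to 32.4% of listed reads and stayed out of the tests. Reads in genes numbered 13424356 to 17012910 per library, so 3 reads were 0.181 to 0.224 CPM by scaled library size; these limits reflect counting error alone.

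The tests used edgeR 4.0.16 (R 4.3.3; quasi-likelihood test, TMM, filterByExpr with minimum count 10 and minimum total 15), which kept 16369 genes, with genes called where the Benjamini-Hochberg adjusted p fell under 0.05. SEs are the absolute log2 fold change over the square root of F. Lengths and positions came from GENCODE release 29 (GRCh38), matched by symbol, since the build behind the counts was older; 83.8% of tested genes found a position. In the lists, 4 symbols were matched through RefSeq synonyms. The members and lists were chosen with earlier results of these data known. Named are all members, ZFP90, in each list the called genes of largest change (at most 4 per direction) and the most abundant gene, and the 3 genes closest in pattern to each called member; in 3 lists 1 more called gene is also named, chosen after its values were seen. For 1 gene that the rule picks, the values are not reported here. No replicate pair of a group had counts within sampling noise (chi-square per degree of freedom 2.19 to 19.7). On simulated data with the same group sizes (16149 genes tested), 75.9% of genes seeded at 1.5-fold, 93.3% at 2-fold and 100% at 4-fold were recovered, with 5.49% of calls false. Only 79, 60 and 56 tested genes were seeded at these folds, whereas 3454 were called in the data. The simulation used the trended dispersion and lacked the deficit of control replicate 2. These shares therefore do not describe the recovery or the false calls of the real libraries. The alternatives tried comprised 3 other scalings, DESeq2 1.42.0 and limma-voom (limma 3.58.1), 2 other count filters, an adjusted p under 0.01, a replicate block, leaving out each library, a correction of control replicate 2 by a running median over 51 genes, and the 18 chromosomes without its deficit.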

Additional observations from a re-analysis of the deposited data

How the results depend on the processing

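ZEB1 and OVOL1 kept their direction and their call under all 17 alternatives, with log2 fold changes from -1.11 to -0.92 and from 0.51 to 0.64 and adjusted p of at most 0.0235 and 0.0204. GRHL2 stayed positive under its 16 alternatives (0.28 to 0.49); it lies outside the 18 chromosomes, and besides the libraries named above it lost its call at an adjusted p under 0.01 (0.40). The call of CDH3 was gained with control replicate 2 corrected along the genome (-0.14). VIM was called under none of its 16 alternatives. The direction of CDH1 turned with library size alone (-0.0426). That of SNAI1 turned with library size alone (-0.0361), without control replicate 1 (-0.0015) or 2 (-0.0073) and without replicate 3 labelled knockout (-0.0647); its highest value was 0.0942, without control replicate 3.

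The 2 members called higher became 1 on the 18 chromosomes and at an adjusted p under 0.01, and 1 to 2 with 1 library left out; the 1 called lower became 2 with control replicate 2 corrected along the genome. Over all genes, 1593 higher and 1861 lower became 618 and 869 at an adjusted p under 0.01; 986 were higher with library size alone (2343 lower, so the higher share of calls was 29.6% against 46.1%) and 2494 with control replicate 2 corrected. With 1 library left out, 756 to 2261 were higher and 1025 to 2361 lower; fewest were called without replicate 1 labelled knockout and most without control replicate 2.

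Same-numbered libraries of the groups deviated together with r of 0.0597, 0.158 and 0.111 over genes, and the numbers were not taken as pairs. Every library correlated best with its own number. With the replicate block 1623 genes were higher and 1840 lower, 2 members were higher and 1 lower, and 4 other epithelial factors were lower instead of 2. Without the count filter SNAI2, ZEB2 and CDH2 were not called. With the longest transcript as length, 13 of 20 per-length levels moved by more than their SD. Depth limits CDH2, ZEB2, SNAI2 and VIM, which had at most 16 reads per library.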
